A study of Mus musculus with 10 samples.

Results

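The genes described here are 10 genes outside the protocadherin cluster, several of them known from other tissues than brain: *Dnah1*, *Catsperg1*, *Caps2*, *Tchh*, *Dgat2l6*, *Klhl40*, *Rnf113a2*, *Map10*, *Gm19026* and *Gm26624*. They are 10 of the 54532 genes counted, and all 10 passed the filter on low counts that left 18573 genes for testing. They were chosen by their level, as genes other than protocadherins that were higher in *Mphosph8*Δ/Δn than in control in these same libraries, so their difference between *Mphosph8*Δ/Δn and control is given below as a description, and the count of calls in it, which the choice favours, is no evidence about them. RNA of NeuN+ nuclei, sorted from brains of adult C57BL/6J mice, was sequenced in 10 libraries. The 5 control libraries carried floxed alleles but no *Nestin*-Cre, replicates 1 to 3 of *Mphosph8* fl/fl genotype and replicates 4 and 5 of *Morc2a* fl/fl genotype. The 3 *Mphosph8*Δ/Δn libraries were *Mphosph8* fl/fl *Nestin*-Cre+ and the 2 *Morc2a*Δ/Δn libraries *Morc2a* fl/fl *Nestin*-Cre+. *Nestin*-Cre recombines in neural progenitors, and hence in neurons and glia, and the sort on NeuN keeps neuronal nuclei. No control carried the transgene, so the presence of Cre and the loss of the floxed gene cannot be told apart. The design states at least 2 brains per genotype, the labels do not say which library came from which brain, and p-values measure the spread between these libraries. The total count per library was between 6686038 and 10764555, and 3 counts corresponded to between 0.281 and 0.446 CPM (counts scaled to library size with TMM, per 1e6 counts).

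MPP8, encoded by *Mphosph8*, is a chromodomain protein that binds histone H3 trimethylated at lysine 9 and is a subunit of the human silencing hub (HUSH) together with TASOR and periphilin. MORC2A is an ATPase that HUSH recruits to compact chromatin, and SETDB1 is the methyltransferase that writes the mark. HUSH is known for silencing LINE-1 elements, retrocopies and long transcription units without introns. The genes described here are otherwise known from sperm flagella and cilia, hair follicles and sebaceous lipids, skeletal muscle, or as intronless copies and noncoding RNAs.

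The libraries were checked against their labels first. *Rbfox3*, which encodes NeuN, was between 150 and 304 CPM in all 10 libraries. *Mphosph8* was 38.7 ± 6.81 CPM in control (SD, n = 5) and 30.65 ± 10.25 CPM in *Mphosph8*Δ/Δn (SD, n = 3), and only replicate 3 (18.8 CPM) lay below every control. *Morc2a* was 140 ± 14.7 CPM in control (SD, n = 5) and 219 ± 5.46 CPM in *Morc2a*Δ/Δn (SD, n = 2), both *Morc2a*Δ/Δn libraries being above every control (adjusted p = 0.0916, edgeR). In *Mphosph8*Δ/Δn the level of *Morc2a* was 179.7 ± 23.66 CPM (SD, n = 3; adjusted p = 0.788, edgeR), and 2 of the 3 libraries were above every control. The floxed segment is exon 4 of each gene. By the study's account, RNA without this exon is degraded by nonsense-mediated decay because its reading frame shifts. The count of the gene would then be lower. The count of *Morc2a* went the other way in both libraries labelled *Morc2a*Δ/Δn, and that of *Mphosph8* was within the range of the controls in 2 of the 3 libraries labelled *Mphosph8*Δ/Δn. The study reports that loss of both genes was verified in whole brains by quantitative RT-PCR and by immunoblot. It also measured RNA of both genes by quantitative RT-PCR in sorted NeuN+ nuclei of control and both knockouts, with the values shown in a figure only. The counts used here take in all exons, so that the deletion itself was not seen in any library, and the names *Mphosph8*Δ/Δn and *Morc2a*Δ/Δn stand below for the libraries labelled so.

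The genes lie on 10 chromosomes (GRCm38). *Tchh* is at chr3:93442330-93449077, *Catsperg1* at chr7:29181321-29214035, *Map10* at chr8:125669818-125673359 and *Rnf113a2* at chr12:84417196-84418578. *Dnah1* is at chr14:31260375-31323896, *Caps2* at chr10:112163621-112216555, *Klhl40* at chr9:121777607-121783818 and *Dgat2l6* at chrX:100524838-100546144. *Gm19026*, annotated as a processed pseudogene, is at chr1:6429655-6441296, and the long noncoding RNA *Gm26624* spans chr4:147136278-147457019, a stretch that also holds the zinc finger genes *Zfp991*, *Zfp988* and *Zfp978*. *Rnf113a2* and *Map10* have a single exon in every annotated transcript, which is 2 of 10 genes, against 12.4% of the genes tested and 2.34% of the protein-coding ones. At most 3 exons in every transcript were annotated for 5 of the 10 genes, as for 26.8% of the genes tested. In 7 of the 10 the longest exon made up more than 50% of the exonic bases, as in 51.1% of the genes tested, and among those with introns it was highest in *Tchh*, where 1 exon of 5685 bases held 97.6% of them, and lowest in *Dnah1*, with up to 78 exons and none longer than 352 bases.

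RefSeq promoters (GRCm38.p6, 250 bases before to 50 after the start) were available for 7 of the genes, 8 windows in all, and 3 of them are printed: the only one with an X-box (*Catsperg1*), the one with the most CpG dinucleotides (*Map10*) and the one with the lowest GC content (*Tchh*). Motifs are in capitals. They were TATAAA (the TATA box), GGGCGG (the GC box), TGACGTCA (the cAMP response element), the NRF1 site, and the X-box of RFX factors, which act on cilium genes, each searched on both strands. No match overlapped another motif, but 2 of the 3 TATAAA matches of *Map10*, on opposite strands, overlapped each other.
*Catsperg1*, chr7:29213984-29214283, minus strand: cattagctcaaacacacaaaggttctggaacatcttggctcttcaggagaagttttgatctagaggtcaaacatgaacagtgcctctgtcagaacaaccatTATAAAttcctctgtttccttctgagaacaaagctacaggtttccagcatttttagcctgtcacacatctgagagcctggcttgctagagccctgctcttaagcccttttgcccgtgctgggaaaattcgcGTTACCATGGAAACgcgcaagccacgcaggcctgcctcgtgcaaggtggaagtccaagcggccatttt
*Map10*, chr8:125669568-125669867, plus strand: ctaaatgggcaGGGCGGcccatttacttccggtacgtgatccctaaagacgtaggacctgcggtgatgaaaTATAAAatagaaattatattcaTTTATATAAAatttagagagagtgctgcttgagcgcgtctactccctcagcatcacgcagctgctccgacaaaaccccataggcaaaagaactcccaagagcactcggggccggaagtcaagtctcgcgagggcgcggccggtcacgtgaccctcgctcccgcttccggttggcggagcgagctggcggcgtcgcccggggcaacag
*Tchh*, chr3:93442080-93442379, plus strand: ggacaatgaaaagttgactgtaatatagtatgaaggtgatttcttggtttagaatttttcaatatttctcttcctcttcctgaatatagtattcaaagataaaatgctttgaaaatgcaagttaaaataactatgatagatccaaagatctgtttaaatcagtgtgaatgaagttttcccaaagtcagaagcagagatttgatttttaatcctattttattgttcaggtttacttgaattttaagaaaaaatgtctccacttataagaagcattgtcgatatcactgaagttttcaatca

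The *Catsperg1* window held the X-box 18 bases before the start, a motif found in 0.128% of all 32851 promoters and searched only after this promoter had been seen. TATAAA was in 3 of the 8 windows and in 13.6% of all promoters, and GGGCGG in 3 of the 8 and in 35.7%. Neither TGACGTCA (1.79% of all promoters) nor the NRF1 site (0.971%) was in any of the 8 windows. The windows did not share a base composition. *Map10* held 26 CpG dinucleotides and *Tchh* 1, against a median of 7 over all promoters, and the GC content ran from 28.7% in *Tchh* to 59.3% in the second *Catsperg1* window (median of all promoters 52.7%).

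Several of the genes have close copies, and the reads were 50 bases long. *Catsperg1* was 96.5% identical to *Catsperg2* over 3432 aligned coding bases, and 43.0% of the 50-base windows of its transcripts occurred without a difference in *Catsperg2*, so that the counts of this pair are uncertain. *Gm19026* was 96.9% identical to the transcript of *Camsap1*, a microtubule minus-end binding protein, over 4509 bases, and 22.9% of its windows occurred in *Camsap1*, which was far more abundant, so that the counts of *Gm19026* are uncertain too. *Caps2* shared 19.2% of its windows with 94 genes, *Klhl40* 20.02% with *Gm47108* on the opposite strand, and *Dnah1* 2.46% with *Gm35823* on the opposite strand. *Rnf113a2* shared none with any other gene. Its coding sequence was 83.2% identical to that of the related gene *Rnf113a1* over 1005 bases, and the longest stretch without a difference, 31 bases, is shown with 15 bases on either side because it is where reads of the pair come closest, with the bases that differ in capitals.
*Rnf113a2*, coding bases 473 to 533: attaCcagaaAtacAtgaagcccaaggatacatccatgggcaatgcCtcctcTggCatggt
*Rnf113a1*, coding bases 467 to 527: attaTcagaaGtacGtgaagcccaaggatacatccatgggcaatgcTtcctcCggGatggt

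All 10 genes were higher in the libraries labelled *Mphosph8*Δ/Δn than in control, by log2 fold changes between 1.08 (*Rnf113a2*) and 2.88 (*Gm19026*) with a median of 1.55. In all 10 the 3 *Mphosph8*Δ/Δn libraries lay above each of the 5 controls, which was so for 2.31% of all genes tested. The 4 genes *Dnah1*, *Tchh*, *Rnf113a2* and *Gm19026* had a fold change above 2 with a Benjamini-Hochberg adjusted p below 0.05 in the edgeR fit of all genes, as did 0.0969% of all genes. These values repeat the choice of the genes and nothing is read from them. In the libraries labelled *Morc2a*Δ/Δn, which the choice did not use, all 10 were higher than in control on average, by log2 fold changes between 0.43 (*Dnah1*) and 3.03 (*Caps2*) with a median of 1.12, against a median of -0.01 over all genes. The 5 controls are shared with the comparison that chose the genes, and controls low by chance in these genes would raise both differences. Both *Morc2a*Δ/Δn libraries lay above every control in 8 of the 10 genes, the exceptions being *Dnah1* and *Catsperg1*, and in 7.59% of all genes tested. Only *Rnf113a2*, 1 of the 10, passed the thresholds in *Morc2a*Δ/Δn, as did 0.0377% of all genes in this direction, and 9 of the 10 had an unadjusted p below 0.05 against 10.7% of all genes. In bulk RNA, more nuclei that use a gene and more RNA of it per nucleus cannot be told apart.

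**Figure D1:**
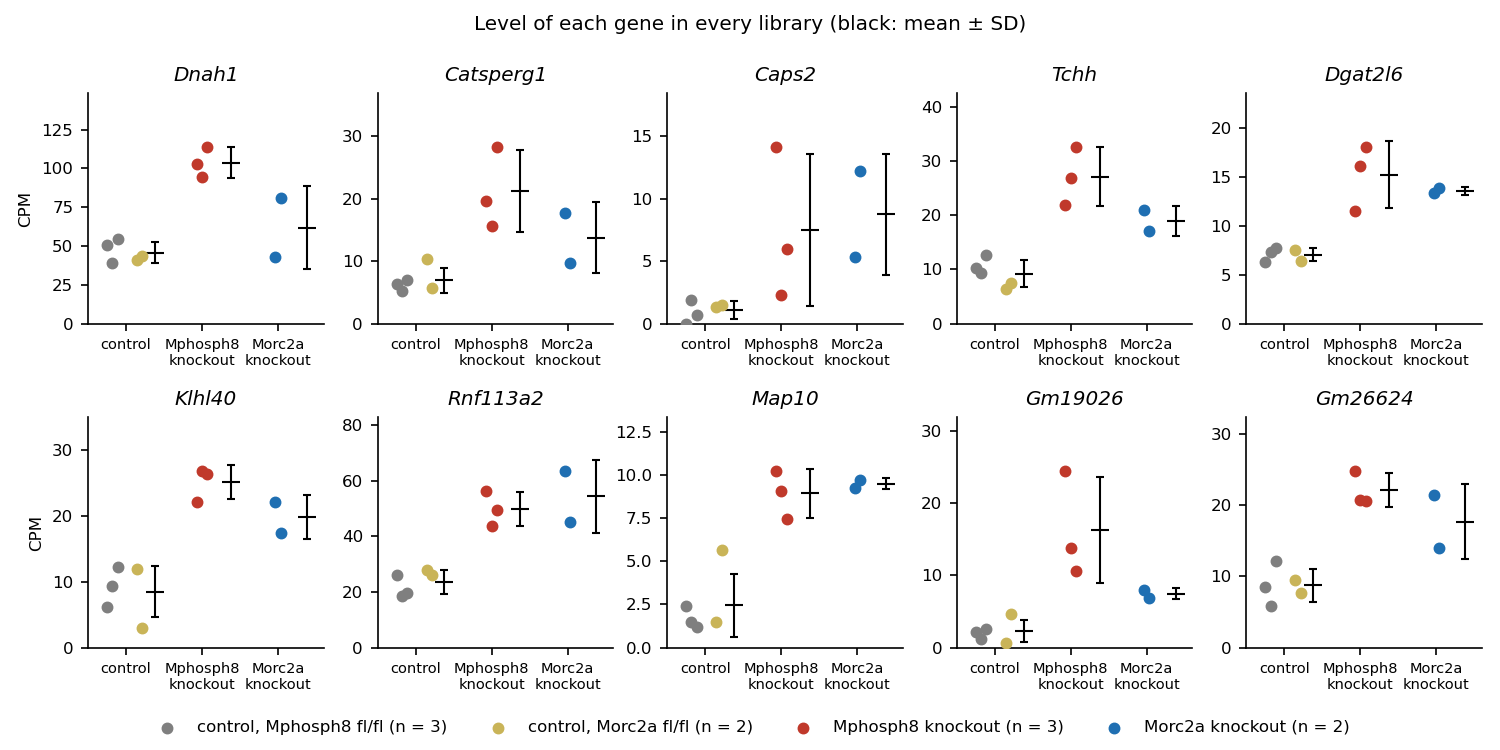
CPM (y axis, linear from 0, a scale of its own in each panel) of the 10 genes in each of the 10 libraries, with controls split by floxed line and black bars for the mean ± SD of each genotype. In every panel the 3 red points lie above all control points, and in 8 of the 10 both blue points do, the exceptions being *Dnah1* and *Catsperg1*.

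**Figure D2:**
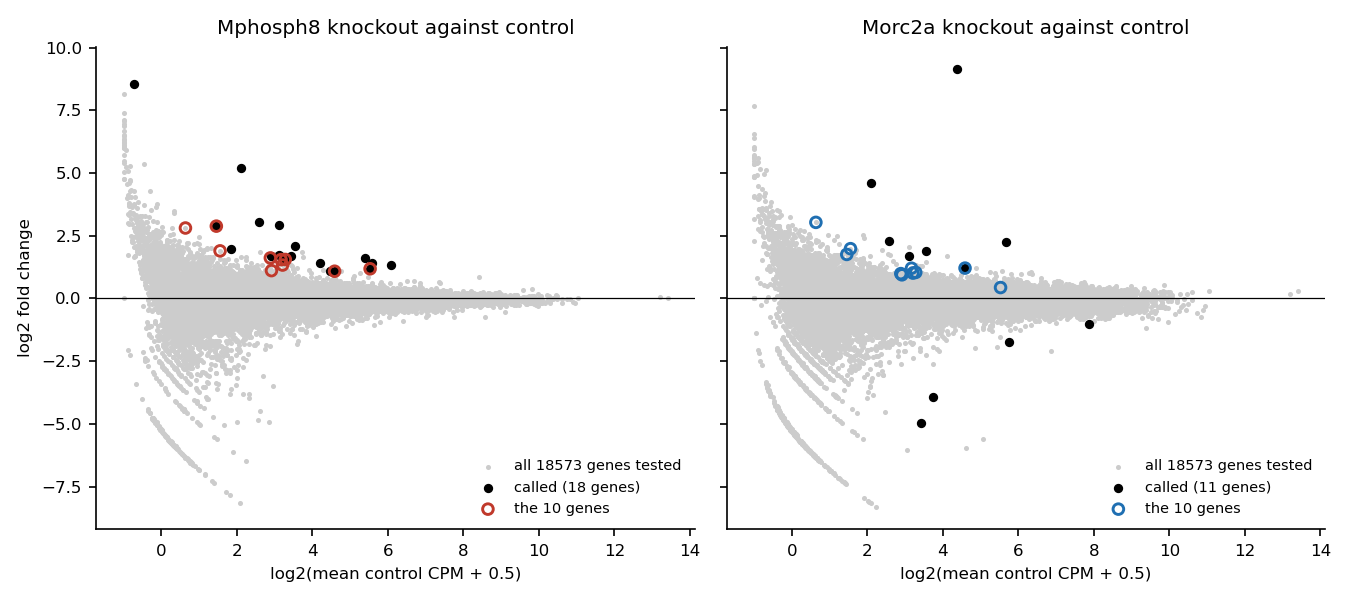
Log2 fold change (y axis) against the mean level in control, as log2(CPM + 0.5) (x axis), for all 18573 genes tested in each knockout, with called genes in black and the 10 genes circled. The circled genes sit between 1.08 and 2.88 on the left and between 0.43 and 3.03 on the right.

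Among the genes of sperm flagella and cilia, *Dnah1* (ENSMUSG00000019027), a heavy chain of the axonemal inner dynein arm, was at 50.6, 38.9, 54.3, 41.0 and 43.7 CPM in control replicates 1 to 5 and at 103, 94.5 and 114 CPM in *Mphosph8*Δ/Δn. The *Morc2a*Δ/Δn libraries were at 42.9 and 80.6 CPM, replicate 1 within the range of the controls and replicate 2 above it. The difference was 1.18 ± 0.19 (log2, SE) in *Mphosph8*Δ/Δn, against 0.43 ± 0.21 in *Morc2a*Δ/Δn (adjusted p = 0.491, edgeR), and without *Morc2a*Δ/Δn replicate 2 the latter was -0.10. *Gm35823*, the antisense gene that covers 4.22% of the exonic bases of *Dnah1*, was at 2.64 ± 1.96 CPM in control (SD, n = 5) and 6.02 ± 1.64 CPM in *Mphosph8*Δ/Δn (SD, n = 3). The strand setting of the counting was not given in the sources used here, and reads of such overlapping genes cannot be told apart.

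*Catsperg1* (ENSMUSG00000049676) encodes the gamma subunit of CatSper, the calcium channel of the sperm tail. It was at 6.27, 5.27, 6.93, 10.4 and 5.64 CPM in control and at 19.7, 15.6 and 28.4 CPM in *Mphosph8*Δ/Δn. The *Morc2a*Δ/Δn libraries were at 17.8 and 9.71 CPM, and replicate 2 overlapped the highest control, replicate 4. On the log2 scale the difference was 1.61 ± 0.31 (SE) in *Mphosph8*Δ/Δn, against 0.99 ± 0.35 in *Morc2a*Δ/Δn (adjusted p = 0.315, edgeR), and without *Morc2a*Δ/Δn replicate 1 the latter was 0.49. Its near-identical copy *Catsperg2* was lower throughout, at 0.604 ± 0.590 CPM in control (SD, n = 5), 2.50 ± 1.74 CPM in *Mphosph8*Δ/Δn (SD, n = 3) and 1.25 ± 1.01 CPM in *Morc2a*Δ/Δn (SD, n = 2).

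*Caps2* (ENSMUSG00000035694), which encodes the EF-hand calcium-binding protein calcyphosine 2, was the lowest of the 10 genes in control. It had 0, 19, 7, 13 and 10 counts in control, 137, 24 and 58 counts in *Mphosph8*Δ/Δn and 50 and 118 counts in *Morc2a*Δ/Δn. All knockout libraries were above the controls, but *Mphosph8*Δ/Δn replicate 2, at 2.32 CPM, exceeded control replicate 2 (1.85 CPM) by little. The spread among *Mphosph8*Δ/Δn libraries was the widest of the 10 genes, with 6.11 times between the highest and lowest *Mphosph8*Δ/Δn library. This gave a log2 difference of 2.81 ± 0.71 (SE) in *Mphosph8*Δ/Δn, against 3.03 ± 0.77 in *Morc2a*Δ/Δn (adjusted p = 0.150, edgeR). The former was 1.96 without *Mphosph8*Δ/Δn replicate 1, and the latter 2.31 without *Morc2a*Δ/Δn replicate 2.

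Of the genes of hair and lipid, *Tchh* (ENSMUSG00000052415) encodes trichohyalin, a structural protein of the inner root sheath of the hair follicle. It was at 10.3, 9.27, 12.7, 6.33 and 7.58 CPM in control, at 21.8, 27.0 and 32.7 CPM in *Mphosph8*Δ/Δn and at 20.98 and 17.1 CPM in *Morc2a*Δ/Δn. The groups did not overlap, and the *Morc2a*Δ/Δn libraries lay between the controls and the *Mphosph8*Δ/Δn libraries. The log2 difference was 1.55 ± 0.26 (SE) in *Mphosph8*Δ/Δn, against 1.04 ± 0.30 in *Morc2a*Δ/Δn (adjusted p = 0.199, edgeR). *Dgat2l6* (ENSMUSG00000067597) belongs to the DGAT2 family of acyltransferases, which make triglycerides and waxes. It was at 6.27, 7.32, 7.77, 7.52 and 6.39 CPM in control, at 11.5, 16.1 and 18.1 CPM in *Mphosph8*Δ/Δn and at 13.3 and 13.8 CPM in *Morc2a*Δ/Δn. Its controls had the smallest spread of the 10 genes, with a coefficient of variation of 9.68%, and both knockouts lay above every control while overlapping each other. On the log2 scale the difference was 1.11 ± 0.27 (SE) in *Mphosph8*Δ/Δn, against 0.94 ± 0.30 in *Morc2a*Δ/Δn (adjusted p = 0.264, edgeR).

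*Klhl40* (ENSMUSG00000074001) encodes a kelch-like protein of skeletal muscle that stabilizes thin filament proteins and is mutated in nemaline myopathy. It was at 6.14, 9.27, 12.2, 11.97 and 2.97 CPM in control, at 22.1, 26.9 and 26.3 CPM in *Mphosph8*Δ/Δn and at 22.1 and 17.5 CPM in *Morc2a*Δ/Δn. The controls were uneven, replicate 5 being the lowest, and every knockout library was above them. This gave a log2 difference of 1.55 ± 0.34 (SE) in *Mphosph8*Δ/Δn, against 1.20 ± 0.38 in *Morc2a*Δ/Δn (adjusted p = 0.248, edgeR). *Gm47108*, on the opposite strand over 21.6% of the exonic bases of *Klhl40*, was at 1.37 ± 1.06 CPM in control (SD, n = 5), 3.63 ± 1.52 CPM in *Mphosph8*Δ/Δn (SD, n = 3) and 5.32 ± 2.56 CPM in *Morc2a*Δ/Δn (SD, n = 2).

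Of the intronless genes, *Rnf113a2* (ENSMUSG00000098134) encodes a RING finger protein and lies inside *Bbof1*, a ciliary gene on the same strand, without sharing an exonic base with it. It was at 25.9, 18.4, 19.7, 27.8 and 25.99 CPM in control, at 56.3, 43.9 and 49.6 CPM in *Mphosph8*Δ/Δn and at 63.7 and 45.1 CPM in *Morc2a*Δ/Δn. Every knockout library was above every control. The log2 difference was 1.08 ± 0.20 (SE) in *Mphosph8*Δ/Δn, against 1.21 ± 0.22 in *Morc2a*Δ/Δn, and the latter passed the test (adjusted p = 0.0434, edgeR). The call rested on few libraries: it stayed when control replicate 4 (adjusted p = 0.0382, edgeR) or 5 (0.0291) was left out, and was lost without control replicate 1 (0.0714), 2 (0.101) or 3 (0.132), *Mphosph8*Δ/Δn replicate 1 (0.0691), 2 (0.0744) or 3 (0.0675), or *Morc2a*Δ/Δn replicate 1 (0.221) or 2 (0.0979). *Rnf113a1*, the related gene, was at 16.7 ± 5.10 CPM in control (SD, n = 5), 23.0 ± 12.8 CPM in *Mphosph8*Δ/Δn (SD, n = 3) and 20.8 ± 1.26 CPM in *Morc2a*Δ/Δn (SD, n = 2; adjusted p = 0.826, edgeR). The surrounding *Bbof1* was at 36.9 ± 4.78, 38.9 ± 2.28 and 48.2 ± 2.15 CPM in the same groups (adjusted p = 0.494 in *Morc2a*Δ/Δn, edgeR).

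*Map10* (ENSMUSG00000050930), the other gene with a single exon, encodes a microtubule-associated protein that acts in cell division. It was at 2.38, 1.46, 1.22, 1.48 and 5.64 CPM in control, at 10.2, 9.09 and 7.45 CPM in *Mphosph8*Δ/Δn and at 9.27 and 9.71 CPM in *Morc2a*Δ/Δn. Control replicate 5 stood apart from the other controls but stayed below every knockout library. On the log2 scale the difference was 1.90 ± 0.47 (SE) in *Mphosph8*Δ/Δn, against 1.98 ± 0.52 in *Morc2a*Δ/Δn (adjusted p = 0.166, edgeR), and without control replicate 5 the latter was 2.53 and passed (adjusted p = 0.0237, edgeR).

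*Gm19026* (ENSMUSG00000103845), the processed pseudogene nearly identical to *Camsap1*, was at 2.13, 1.17, 2.62, 0.693 and 4.60 CPM in control, at 24.5, 13.8 and 10.6 CPM in *Mphosph8*Δ/Δn and at 7.99 and 6.92 CPM in *Morc2a*Δ/Δn. The *Morc2a*Δ/Δn libraries lay above the controls and below the *Mphosph8*Δ/Δn libraries. This gave a log2 difference of 2.88 ± 0.48 (SE) in *Mphosph8*Δ/Δn, against 1.75 ± 0.53 in *Morc2a*Δ/Δn (adjusted p = 0.229, edgeR). *Camsap1* itself was at 159 ± 14.4 CPM in control (SD, n = 5), 154 ± 14.8 CPM in *Mphosph8*Δ/Δn (SD, n = 3) and 141 ± 3.35 CPM in *Morc2a*Δ/Δn (SD, n = 2; adjusted p = 0.730, edgeR). *Gm26624* (ENSMUSG00000097122), a long noncoding RNA of 3 exons, was at 8.52, 5.86, 12.2, 9.50 and 7.72 CPM in control, at 24.8, 20.8 and 20.6 CPM in *Mphosph8*Δ/Δn and at 21.4 and 13.9 CPM in *Morc2a*Δ/Δn. Both knockouts lay above every control, although control replicate 3 came close to *Morc2a*Δ/Δn replicate 2, and they overlapped each other. The log2 difference was 1.33 ± 0.27 (SE) in *Mphosph8*Δ/Δn, against 1.01 ± 0.31 in *Morc2a*Δ/Δn (adjusted p = 0.229, edgeR).

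**Figure D3:**
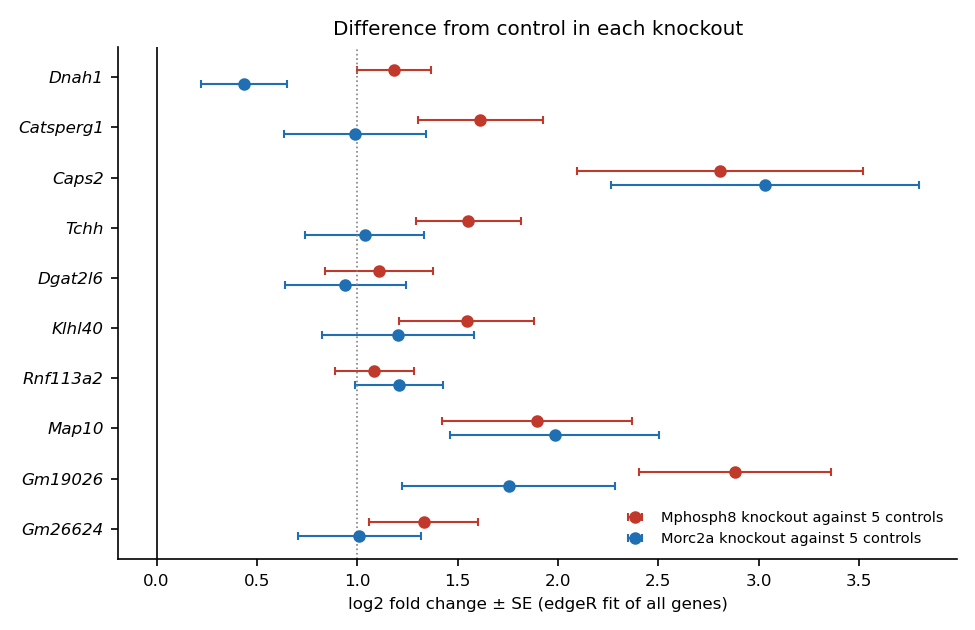
Log2 fold change ± SE (x axis) of each gene in *Mphosph8*Δ/Δn (red) and *Morc2a*Δ/Δn (blue) against the same 5 controls, with a dotted line at 1. All 20 estimates are above 0, and the lowest is that of *Dnah1* in *Morc2a*Δ/Δn, at 0.43.

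Controls of different floxed lines could differ in these genes. The *Morc2a* fl/fl controls differed from the *Mphosph8* fl/fl controls by log2 values between -0.63 (*Tchh*) and 1.06 (*Map10*), 5 genes being higher and 5 lower. None of the 10 genes was called in this comparison by edgeR or DESeq2, while 0.129% of all genes were by edgeR. An unadjusted p below 0.05 was found for 0 of the 10, against 9.21% of all genes. The choice of the genes used these control values and favours genes in which all controls are low and close together, so that nothing is read from these counts. Against the 2 controls of its own line, the libraries labelled *Morc2a*Δ/Δn were higher in all 10 genes, by log2 values between 0.55 (*Dnah1*) and 2.65 (*Caps2*), and 8 of the 10 had an unadjusted p below 0.05, against 9.08% of all genes. With 2 libraries against 2, 0 of the 10 genes were called (adjusted p between 0.201 and 0.638, edgeR), against 0.0377% of all genes called higher. Against the 3 controls of its own line, *Mphosph8*Δ/Δn was higher by log2 values between 1.10 (*Dgat2l6*) and 3.11 (*Caps2*).

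Levels between genes were compared per length, as CPM per kb of exonic sequence. In control, *Rnf113a2* was the highest at 17.0 ± 3.05 CPM per kb (SD, n = 5), above 79.8% of the genes tested. It was followed by *Dnah1* (3.50 ± 0.50), *Klhl40* (3.40 ± 1.58), *Gm26624* (2.32 ± 0.62), *Tchh* (1.59 ± 0.42) and *Dgat2l6* (1.49 ± 0.14), neighbours in this order that did not differ beyond their SD from *Dnah1* on. *Catsperg1* (0.980 ± 0.291), *Map10* (0.688 ± 0.521), *Gm19026* (0.495 ± 0.336) and *Caps2* (0.309 ± 0.214) were lowest. *Catsperg1* lay below *Dgat2l6* by more than their SDs, the lowest 4 overlapped their neighbours among themselves, and *Caps2* was above 8.56% of the genes tested. In *Mphosph8*Δ/Δn the level of *Rnf113a2* was 36.1 ± 4.50 CPM per kb (SD, n = 3) and that of *Klhl40*, the next, 10.0 ± 1.03. Without scaling to length, *Dnah1* was the highest in control at 45.7 CPM.

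Genes of the same families, from lists written with earlier results of these data known, were read from the same fit. Over 72 tested genes of these lists besides the 10, edgeR, DESeq2 and limma-voom each called 0 genes in either knockout, beside shares of all genes called in either direction by edgeR of 0.0969% (*Mphosph8*Δ/Δn) and 0.0592% (*Morc2a*Δ/Δn). At an unadjusted p below 0.05 were 4 higher and 3 lower genes in *Mphosph8*Δ/Δn and 7 higher and 4 lower in *Morc2a*Δ/Δn, which is 9.72% and 15.3% of the 72, against 5.67% and 10.7% of all genes. The 14 other axonemal dyneins tested had median log2 differences of 0.22 (*Mphosph8*Δ/Δn) and 0.15 (*Morc2a*Δ/Δn), against -0.01 and -0.01 over all genes. Of these, *Dnal4* and *Dnal1*, light chains, were the most abundant, with log2 differences of -0.01 and 0.05 in *Mphosph8*Δ/Δn, while the outer-arm heavy chain *Dnah9* had 0.44 (adjusted p = 0.967, edgeR) and *Dnah11* -0.14. The 7 other CatSper genes had medians of -0.12 and 0.17. Among them the pore subunit *Catsper2*, the most abundant, had log2 differences of -0.12 (*Mphosph8*Δ/Δn) and 0.36 (*Morc2a*Δ/Δn), and the genes of the pore subunit *Catsper1* and of *Catsperb* had no count in any library. *Catsperz* was at 14.8 ± 3.21 CPM in control (SD, n = 5), 8.90 ± 2.34 CPM in *Mphosph8*Δ/Δn (SD, n = 3) and 16.7 ± 6.39 CPM in *Morc2a*Δ/Δn (SD, n = 2), and passed the test in neither (adjusted p = 0.810 and 0.918, edgeR). *Catspere2* and *Catsperd* had log2 differences of -0.54 and -0.01 in *Mphosph8*Δ/Δn and of -0.07 and -0.05 in the *Morc2a* knockout. *Catspere1* was at 3.00 ± 4.07 CPM in control (SD, n = 5) and 5.27 ± 7.46 CPM in *Morc2a*Δ/Δn (SD, n = 2), and had no count in *Mphosph8*Δ/Δn (adjusted p = 0.914 and 0.788, edgeR).

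Of the 16 other genes of the cornified envelope and inner root sheath, 2 were tested and 6 had no count in any library. *Lor*, which encodes loricrin of the epidermis, was at 4.97 ± 2.14 CPM in control (SD, n = 5), 12 ± 3.78 CPM in *Mphosph8*Δ/Δn (SD, n = 3) and 8.44 ± 0.107 CPM in *Morc2a*Δ/Δn (SD, n = 2). It did not pass the test (adjusted p = 0.657 and 0.575, edgeR). The other, the inner root sheath keratin gene *Krt25*, had at most 17 counts in any library. The 8 other thin filament and nemaline myopathy genes had medians of -0.04 and -0.05. *Neb*, which encodes the thin filament ruler nebulin and was picked out after its values were seen, was at 3.63, 5.46, 5.24, 3.66 and 1.19 CPM in control, at 11.4, 18.4 and 7.25 CPM in *Mphosph8*Δ/Δn and at 8.84 and 7.03 CPM in *Morc2a*Δ/Δn. Every knockout library was above every control, and it did not pass the test (adjusted p = 0.381 and 0.466, edgeR). *Acta1*, the actin of skeletal muscle, was at 27.1 CPM in control and 37.7 and 38.1 CPM in the knockouts, while *Cfl2*, *Tpm3* and *Tnnt1* had log2 differences between -0.31 and -0.04 in *Mphosph8*Δ/Δn. *Lmod3*, which encodes the leiomodin that KLHL40 stabilizes, had at most 1 count in any library.

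Of the DGAT2 family, *Dgat2*, which makes triglycerides in most tissues, was at 146 ± 19.3 CPM in control (SD, n = 5) and 122 ± 10.47 CPM in *Mphosph8*Δ/Δn (SD, n = 3; adjusted p = 0.919, edgeR), and its coding sequence was 64.1% identical to that of *Dgat2l6*. The wax synthase genes *Awat1* and *Awat2*, 62.2% and 62.1% identical to it, had 0 counts and at most 13 counts in any library, and *Mogat1* had at most 12. *Efcab1*, *Efcab2* and *Capsl*, the genes listed with *Caps2*, had log2 differences of -0.05, 0.31 and 0.81 in *Mphosph8*Δ/Δn. In *Morc2a*Δ/Δn *Efcab1* and *Efcab2* had 0.20 and 0.18. *Capsl*, with at most 14 counts in any library, had no count there (adjusted p = 0.446, edgeR). Among 14 other microtubule-associated proteins the medians were -0.08 and 0.10, and the neuronal *Dclk1*, *Map1b*, *Map2* and *Mapt* had log2 differences between -0.28 and 0.22 in *Mphosph8*Δ/Δn and between 0.04 and 0.33 in *Morc2a*Δ/Δn. The 9 tested genes of HUSH and its partners had medians of 0.02 and 0.04. Besides *Morc2a*, the corepressor *Trim28* and the methyltransferase *Setdb1* were the most abundant, with log2 differences of -0.13 and 0.06 (*Mphosph8*Δ/Δn) or 0.34 and 0.14 (*Morc2a*Δ/Δn), and *Atf7ip*, the partner of SETDB1, had 0.01 and -0.37. The 11 tested testis germ cell genes had medians of 0.12 and -0.36. Of these *Dazl*, *Sycp2*, *Ddx4* and *Acr* had log2 differences between -0.69 and 0.15 in *Mphosph8*Δ/Δn and between -0.47 and -0.08 in *Morc2a*Δ/Δn. Replacing the fitted value of genes without a count in a whole group by the bound that 3 counts per library give left every list's median as it was.

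The genes next to the 10 were read in the same way. Within 100000 bases of their spans lay 108 annotated genes, of which 50 were tested, and edgeR, limma-voom and DESeq2 called 0 of the 50 in each knockout. An unadjusted p below 0.05 was found for 6 of the 50 in each knockout, 12%, against 5.67% and 10.7% of all genes. The neighbours' median log2 difference was -0.08 (*Mphosph8*Δ/Δn) and 0.10 (*Morc2a*Δ/Δn). Around *Rnf113a2*, 7 neighbours were tested and the largest difference in *Mphosph8*Δ/Δn was that of *Entpd5*, at 0.44 (adjusted p = 0.810, edgeR). Both tested neighbours of *Map10*, *Pcnx2* and *Ntpcr*, differed by at most 0.20 in either knockout. The only tested neighbours of *Caps2* and *Gm19026*, *Kcnc2* and *St18*, had log2 differences of -0.06 and -0.18 in *Mphosph8*Δ/Δn. For the remaining genes, the neighbour that differed most in *Mphosph8*Δ/Δn was *Vmn2r-ps20* near *Gm26624* (2.55), *Gm47111* near *Klhl40* (1.92), *Gm5278* near *Tchh* (1.67), *Awat2* near *Dgat2l6* (-1.35) and *Kcnk6* near *Catsperg1* (1.31), all with means below 3 CPM in each group, and *Gm35823* over *Dnah1* (1.20). *Phf7*, a chromatin gene of the male germ line 9058 bases from *Dnah1*, was picked out after its values were seen: it was at 4.76, 11.3, 6.93, 9.99 and 11.3 CPM in control, at 14.4, 26.4 and 17.7 CPM in *Mphosph8*Δ/Δn and at 21.7 and 13.2 CPM in *Morc2a*Δ/Δn. All 5 knockout libraries were above all controls, by log2 differences of 1.14 and 0.98, and it did not pass the test (adjusted p = 0.491 and 0.328, edgeR).

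**Figure D4:**
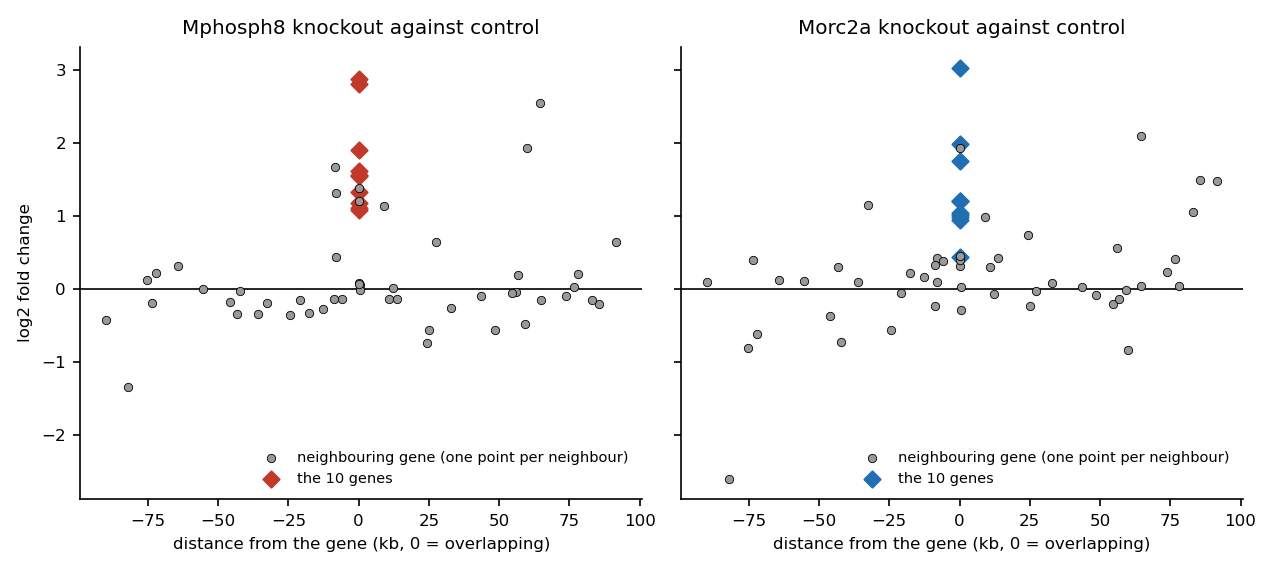
Log2 fold change (y axis) of the 50 tested genes within 100 kb of the 10 genes (grey), against their distance along the strand of the gene (x axis, kb, 0 for overlapping genes), with the 10 genes themselves as diamonds. The neighbours scatter around medians of -0.08 (left) and 0.10 (right).

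Since several of the 10 genes are known from other tissues, marker genes of other cell types were summed in each library. The 14 genes of ependymal and other multiciliated cells, whose most abundant was *Ccno*, summed to 22.1, 28.0, 23.8, 22.8 and 19.8 CPM in control, to 34.8, 24.3 and 23.4 CPM in *Mphosph8*Δ/Δn and to 28.4 and 19.6 CPM in *Morc2a*Δ/Δn. The sums overlapped, *Mphosph8*Δ/Δn replicate 1 being the highest, and *Spag17* had no count in any library. *Ccno* itself was lower in *Mphosph8*Δ/Δn on average (log2 -0.65), whereas 8 of the 12 genes tested were higher, with a median log2 difference of 0.44, and in *Morc2a*Δ/Δn 5 of the 12 were, with a median of -0.15. *Ccdc153*, picked out after its values were seen, was at 0.708 ± 0.717 CPM in control (SD, n = 5) and 3.13 ± 0.387 CPM in *Mphosph8*Δ/Δn (SD, n = 3; adjusted p = 0.908, edgeR), with no count in *Morc2a*Δ/Δn. *Foxj1*, the factor that defines these cells, was at 0.480 ± 0.212 CPM in control (SD, n = 5), 1.22 ± 0.417 CPM in *Mphosph8*Δ/Δn (SD, n = 3) and 0.474 ± 0.233 CPM in *Morc2a*Δ/Δn (SD, n = 2). *Mcidas* and *Cfap126*, also picked out after their values were seen, went the other way in *Mphosph8*Δ/Δn. *Mcidas* was at 1.005 ± 1.288 CPM in control (SD, n = 5) and 0.0322 ± 0.0558 CPM in *Mphosph8*Δ/Δn (SD, n = 3; adjusted p = 0.810, edgeR). *Cfap126* was at 2.27 ± 1.75 and 0.467 ± 0.189 CPM in the same groups (adjusted p = 0.9115, edgeR). The 8 skeletal muscle genes, led by *Pvalb*, which inhibitory neurons also use, summed to between 51.4 and 89.3 CPM in control, between 70.2 and 81.5 CPM in *Mphosph8*Δ/Δn and 76.4 and 52.8 CPM in *Morc2a*Δ/Δn, and *Ckm*, *Myh1*, *Myh4*, *Tnnt3* and *Mylpf* had at most 13 counts in any library. *Myh2* had at most 39 counts. Its level was 0.862 ± 0.928 CPM in control (SD, n = 5) and 1.26 ± 2.18 CPM in *Mphosph8*Δ/Δn (SD, n = 3), with no count in *Morc2a*Δ/Δn.

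The 7 keratinocyte genes, led by *Krt10*, summed to 28.7, 30.7, 30.4, 41.0 and 30.5 CPM in control, to 33.2, 34.9 and 63.5 CPM in *Mphosph8*Δ/Δn and to 45.8 and 33.9 CPM in *Morc2a*Δ/Δn. *Mphosph8*Δ/Δn replicate 3 was the highest, while *Krt14*, *Krt1*, *Dsg1a* and *Ivl* had no count in any library and *Krt5* at most 1. The 25 testis germ cell genes, led by *Dazl*, summed to between 27.2 and 66.2 CPM in control, between 38.5 and 47.7 CPM in *Mphosph8*Δ/Δn and 29.9 and 38.1 CPM in *Morc2a*Δ/Δn, with *Stra8*, *Akap4* and *Pgk2* at 0 counts throughout. Other genes of these lists were present. The spermatid gene *Prm1* was at 3.796 ± 5.747 CPM in control (SD, n = 5) and 1.86 ± 3.14 CPM in *Mphosph8*Δ/Δn (SD, n = 3), with no count in *Morc2a*Δ/Δn. *Acta1* of muscle and *Lor* of keratinocytes, given above, had higher means in both knockouts than in control, and *Krt10* was at 27.3 ± 3.51 CPM in control (SD, n = 5), 31.9 ± 13.8 CPM in *Mphosph8*Δ/Δn (SD, n = 3) and 31.4 ± 8.31 CPM in *Morc2a*Δ/Δn (SD, n = 2). Of the 3 muscle genes tested, 2 were higher in *Mphosph8*Δ/Δn (median log2 0.48) and 1 in *Morc2a*Δ/Δn (median -0.57). *Pvalb* was lower on average in both (log2 -0.08 and -0.57).

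Of the cells of the brain, the 7 neuronal genes summed to between 4351 and 5023 CPM in control, between 4418 and 4674 CPM in *Mphosph8*Δ/Δn and 4044 and 3445 CPM in *Morc2a*Δ/Δn, below every control. Their most abundant gene was *Snap25*. Genes of oligodendrocytes, led by *Mbp*, summed to between 505 and 902 CPM over all libraries, astrocyte genes to between 182 and 271 CPM and choroid plexus genes, led by *Ttr*, to between 90.1 and 193 CPM, so that RNA of these marker genes was present in every library. Whether it came from these cells was not tested. Choroid plexus and oligodendrocyte sums were lower in both *Morc2a*Δ/Δn libraries than in any other library. Microglial, endothelial and fibroblast genes summed to between 8.59 and 54.1 CPM. Of the 63 marker genes tested, edgeR, DESeq2 and limma-voom called 0 in either knockout. An unadjusted p below 0.05 was found for 3 higher and 5 lower markers in *Mphosph8*Δ/Δn, 12.7% of the 63 against 5.67% of all genes, and for 1 higher and 10 lower in *Morc2a*Δ/Δn, 17.5% against 10.7% of all genes. The part of these cell types in the differences of the 10 genes was not tested.

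**Figure D5:**
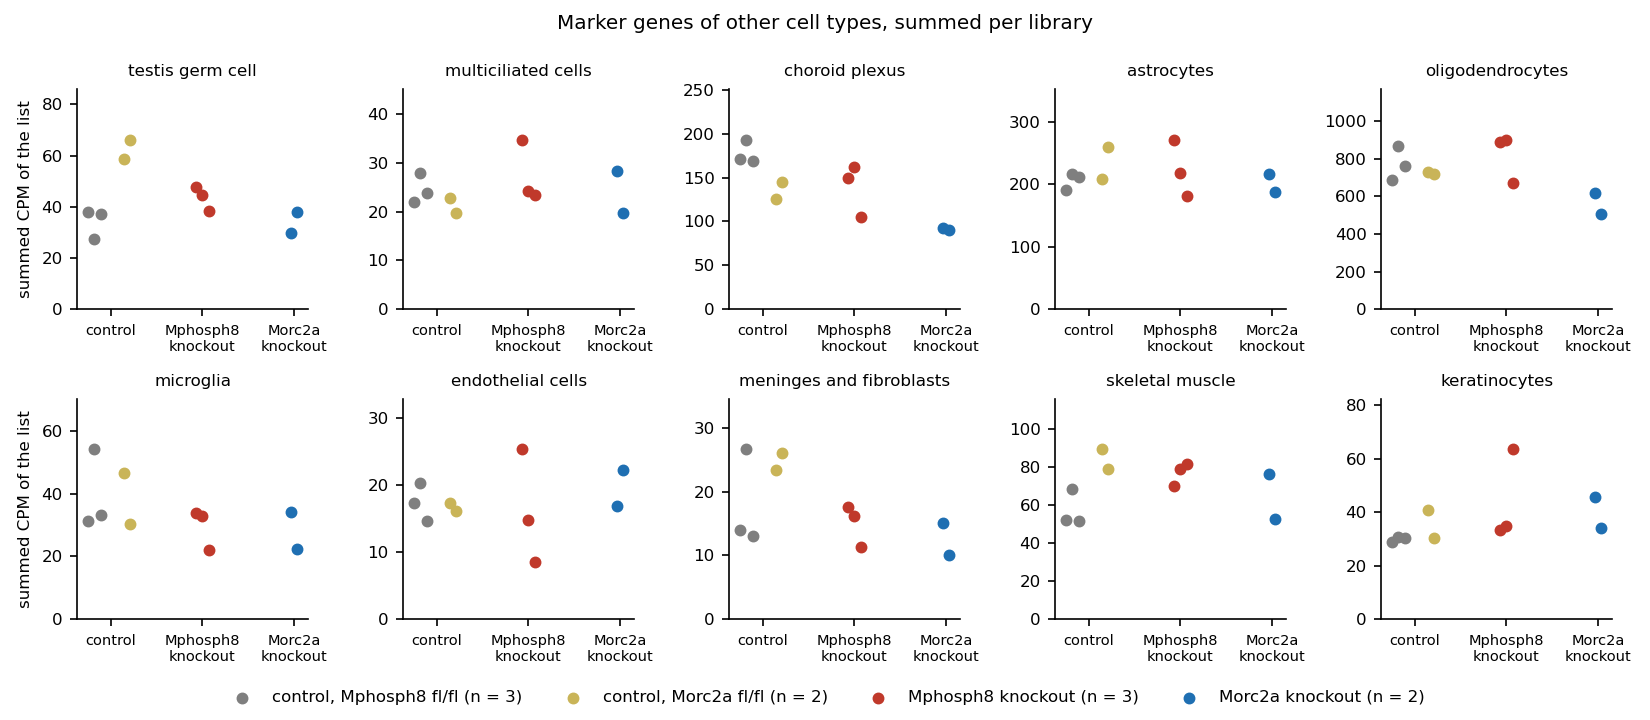
Summed CPM (y axis, linear from 0) of marker genes of 10 other cell types in each library, with controls split by floxed line. In the multiciliated, skeletal muscle and testis panels the knockout points overlap those of the controls.

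Over the 10 libraries the correlation between each gene and the mean of the other 9 was between 0.753 (*Caps2*) and 0.929 (*Gm26624*). The difference between the groups, by which the genes were chosen, makes up part of these values. The 5 genes whose profile over the 10 libraries was most like their mean profile were all clustered protocadherins of chromosome 18: *Pcdhb7* (r = 0.958), *Pcdhb17* (0.955), *Pcdhga4* (0.941), *Pcdhga6* (0.940) and *Pcdhb6* (0.935). These had log2 differences between 1.41 and 3.49 in *Mphosph8*Δ/Δn and between 0.90 and 2.68 in *Morc2a*Δ/Δn. The difference between the groups makes up part of their correlations too. Any gene much higher in the same libraries ranks high by it, so that nothing is read from this order.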

How the data were processed

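The authors trimmed single-end 50-base reads of polyadenylated RNA with Trim Galore 0.5.0, aligned them to GRCm38 and deposited whole-number counts per gene from featureCounts (Subread 1.6.2) with Ensembl 94 genes. How reads of overlapping genes and reads with several alignments were counted was not given in the sources used here. From these counts, edgeR 4.0.16 (R 4.3.3) with TMM scaling and its default filter fitted a quasi-likelihood model to 18573 of 54532 genes in 3 groups, and a fit of 4 groups gave the comparisons within a floxed line and between control lines. A gene was called where its fold change exceeded 2 with a Benjamini-Hochberg adjusted p below 0.05. DESeq2 1.42.0, limma-voom (limma 3.58.1), other scalings and filters, left-out libraries and a replicate block were alternatives. Library totals were 6686038 to 10764555 counts.

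The 10 genes, the lists and the tests were chosen with earlier results of these data known. All 10 genes are named, and of each list the genes called and up to 4 others with the highest mean level in control, of marker lists the most abundant gene. *Catsper1*, *Catsperb*, *Catspere1*, *Lmod3*, *Foxj1*, *Ccdc153*, *Mcidas*, *Cfap126*, *Neb*, *Phf7*, *Prm1*, *Myh2* and markers given as absent or nearly so were named outside this rule, after their values were seen. Nucleotide sequences replaced the planned protein comparison. The X-box and the shared 50-base windows were added after the data had been seen.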

Additional observations from a re-analysis of the deposited data

Results flagged for a closer look

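In 36 groups of 5 controls, 2 values stood apart by Dixon's ratio (the gap to the nearest library over the whole range; critical value 0.71), and chance alone sets apart about 1 in 20 groups. *Map10* was at 5.64 CPM in control replicate 5 (ratio 0.737). The summed keratinocyte markers were at 40.96 CPM in control replicate 4 (ratio 0.834).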

How the results depend on the processing

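By edgeR, 4 of the 10 genes were called in libraries labelled *Mphosph8*Δ/Δn and 1 in those labelled *Morc2a*Δ/Δn. For *Mphosph8*Δ/Δn, 0 were called against the controls of the same line, 8 without the filter on low counts, 8 by DESeq2 and 2 under the replicate block, and leaving out 1 library gave 0 to 5. For *Morc2a*Δ/Δn, 0 were called against the controls of the same line, 5 without the filter and 0 from a fit of its 2 groups alone, and leaving out 1 library gave 0 to 2. Over all genes, 18 were called in *Mphosph8*Δ/Δn, against 10 with the same line's controls, 87 without the filter, 43 by DESeq2, 12 with the replicate block and 6 to 21 with 1 library left out. In *Morc2a*Δ/Δn 11 were called, against 98 without the filter, 6 from its 2 groups alone, 51 by DESeq2, 46 with the replicate block and 3 to 26 with 1 library left out. Same-numbered libraries of different groups did not deviate together (r between -0.028 and 0.055 in 7 pairs). This cannot decide whether libraries were paired, because the numbers set *Morc2a*Δ/Δn libraries beside libraries of the *Mphosph8* line. The replicate block rests on the same numbers. The difference of *Dnah1* in *Morc2a*Δ/Δn reversed to -0.10 (log2) without *Morc2a*Δ/Δn replicate 2 and was 0.82 without replicate 1, and the cause of these changes was not tested. No neighbour, listed gene or control line difference of the 10 genes was called under any alternative run. *Caps2* had the fewest counts of the 10 genes, 0 to 19 per control library.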
